A study of Mus musculus with 22 samples.

Results

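A set of 10 genes of the cell's defence against reactive oxygen is described here across CD8+ T cells of 3 genotypes and 3 activation times. They are Pon2 (paraoxonase 2), the superoxide dismutases Sod1 and Sod2, the peroxiredoxins Prdx1, Prdx2, Prdx3 and Prdx5, the glutathione peroxidases Gpx1 and Gpx4, and Cat (catalase). They were matched by gene symbol, and all 10 were found among the 46603 genes of the count table and among the 21183 genes that passed the filter on low counts. The enzymes other than Pon2 were listed by function. Pon2 was chosen by its measured level, which stayed higher in KI than in wt cells at 48 h, so its values in those 2 groups at 48 h are given as a description without a test.

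RNA was measured by bulk mRNA sequencing in 22 libraries from 8 mice. KI cells came from 3 mice of the line Tcaim KI Cd4Cre with the genotype label hocre, and wt cells from 3 mice of that same line with the label wtcre. Cells labelled KO came from 2 mice of the line Tcaim KO Cd4Cre with the label hocre. Tcaim encodes a mitochondrial protein, and Cd4Cre is a Cre recombinase driven by control sequence of the Cd4 gene. That sequence is active while T cells develop, so Cre acts in CD8+ cells as well. Both the KI and the wt labels name cre, so Cre is shared by the groups as far as the labels go. Ages were not given in the sources used here. KI and wt mice were male in experiments 1 and 3 and female in experiment 5, and both KO mice were female. Naive CD8+ T cells were purified from spleen and lymph nodes by removing other cells on magnets. Some cells were sequenced directly, and others were first stimulated for 24 h or 48 h through CD3 of the antigen receptor (antibody fixed to the plate) and CD28, a costimulatory receptor (antibody in solution). Each KI and wt mouse gave a library at all 3 times, whereas each KO mouse gave a naive and a 48 h library. No KO libraries at 24 h and no wt mice of the KO line were analysed here, so the KO genotype cannot be told apart from its line.

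Superoxide is made mainly as a by-product of mitochondrial respiration, and activated T cells raise respiration and also use peroxide as a signal. Superoxide dismutases turn superoxide into hydrogen peroxide, Sod1 in the cytosol and Sod2 in the mitochondrial matrix. Peroxiredoxins, glutathione peroxidases and catalase then remove peroxide. The first draw their electrons from thioredoxin, the second from glutathione, and catalase needs no external donor. Pon2 is a membrane-bound lactonase of mitochondria and endoplasmic reticulum that lowers superoxide release from the respiratory chain.

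Total counts per library ran from 62551905 to 93489115, and genes encoded by mitochondrial DNA that code for protein took 1.72% to 3.51% of them. Tcaim, the targeted gene, was at 138 to 260 CPM (counts scaled to the library's total) in KI libraries and at 8.38 to 15.2 CPM in wt libraries. In the libraries labelled KO it was at 5.99 to 19.6 CPM, a range that holds the wt range, so they are called "labelled KO" here. A summed list of 5 CD8 T cell markers summed to between 2155 and 4449 CPM in every library. Markers of some other cell types were lower after activation in wt cells. The 5 B cell genes summed to 254 to 425 CPM in wt naive cells and 45.5 to 134 CPM at 48 h, the 5 monocyte and macrophage genes to 102 to 229 CPM and 20.3 to 31.9 CPM, and the 6 red cell genes to 7.09 to 36.5 CPM in wt naive cells and 0.29 to 0.59 CPM at 48 h. In KI cells the B cell list was at 202 to 346 CPM when naive and 102 to 216 CPM at 48 h, which overlap. The 2 naive libraries labelled KO were far apart, at 134 and 1175 CPM for the B cell list. For the 2 CD4 T cell genes they were at 20.4 and 230 CPM, against 31.3 to 67.5 CPM in wt naive cells. At 48 h the libraries labelled KO were at 33.5 and 206 CPM for the B cell list. Changes from naive in cells labelled KO rest on these 2 naive libraries. The part of these cells in the results was not tested. The 48 h library labelled KO of experiment 1 stood apart with the lowest scaling factor of all libraries, 0.929.

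Per length of gene, on the deposited FPKM scale, Sod1 was the most abundant of the 10 in all 22 libraries. In wt naive cells it stood at 153 ± 5.8 FPKM (SD, n = 3). Gpx1 followed at 69.2 ± 12 FPKM and the mitochondrial peroxiredoxin Prdx3 at 52.3 ± 2.5 FPKM. Cat (40.4 ± 2.4 FPKM), Prdx1 (35.1 ± 7.9 FPKM) and Prdx5 (33.7 ± 3.1 FPKM) came next, and neighbours among these 3 overlapped. Prdx2 (17.6 ± 2.0 FPKM) and Sod2 (12.4 ± 1.3 FPKM) were lower. Gpx4 (6.43 ± 0.86 FPKM) and Pon2 (5.94 ± 0.36 FPKM) were lowest and overlapped. These levels leave out reads counted for near-identical pseudogene copies, described below. Such copies held 53.2% of the combined counts for Sod1, 44.3% for Prdx1 and 16.5% for Prdx2. A copy that matches Gpx4 at 99.7% identity was not in the count table. The places of these genes in the order are therefore uncertain. At 48 h in wt cells the order changed in the middle, where Prdx2 reached 61.9 ± 13 FPKM and stood above Prdx5 and Cat, and Cat at 27.7 ± 4.2 FPKM overlapped Sod2 at 24.0 ± 3.7 FPKM. Pon2 was the lowest member in 16 of 22 libraries and Gpx4 in the other 6. These 2 genes overlapped in wt naive cells but not in wt cells at 48 h, where Pon2 was at 3.40 ± 0.09 FPKM and Gpx4 at 8.08 ± 0.94 FPKM.

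**Figure D1:**
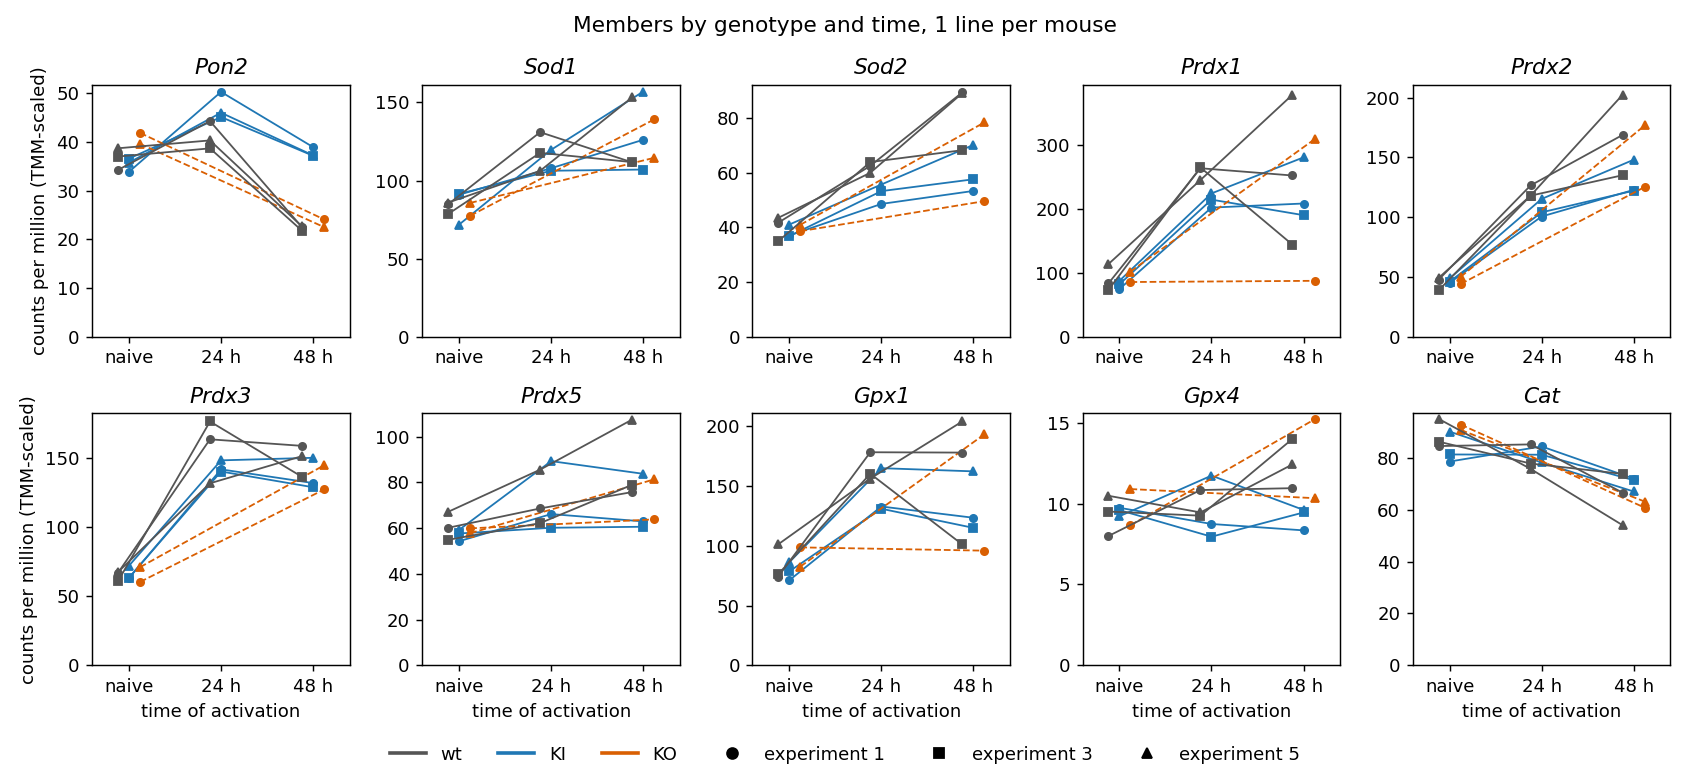
Scaled CPM (y axis, from 0, one scale per gene) of the 10 genes in naive cells and after 24 h and 48 h (x axis), with 1 line per mouse, colour for genotype and marker shape for experiment. Pon2 ended at 21.8 to 24.1 CPM at 48 h in wt cells and cells labelled KO and at 37.2 to 39.0 CPM in KI cells, while most other genes rose in all genotypes.

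Pon2 (ENSMUSG00000032667, GRCm38 chr6:5264147-5298455, minus strand) stood lower at 48 h than when naive in all 3 wt mice and both mice labelled KO, while in KI cells it rose by 24 h and was near its naive level at 48 h. In wt cells of experiments 1, 3 and 5 it stood at 34.3, 37.0 and 38.7 CPM when naive, at 44.3, 38.7 and 40.4 CPM at 24 h, and at 22.5, 21.8 and 22.7 CPM at 48 h. In KI cells the values were 33.9, 36.6 and 35.8 CPM when naive, 50.3, 45.2 and 46.1 CPM at 24 h, and 39.0, 37.2 and 37.3 CPM at 48 h. In cells labelled KO of experiments 1 and 5, it was at 41.9 and 39.6 CPM when naive and at 24.1 and 22.5 CPM at 48 h. The KI libraries at 48 h lay above all wt libraries and all libraries labelled KO of that time. The 48 h values of wt cells and cells labelled KO overlapped.

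Changes that do not involve the 48 h libraries of KI or wt cells were tested. Pon2 rose from naive to 24 h in KI cells by 0.41 on the log2 scale (SE 0.09, edgeR adjusted p = 0.00186), and in all 3 mice, by 0.57, 0.30 and 0.36. In wt cells the same step gave 0.16 (SE 0.09, adjusted p = 0.154). The difference of these 2 steps, 0.25 (SE 0.13), gave an edgeR adjusted p of 1. Cells labelled KO showed a fall from naive to 48 h by 0.81 (SE 0.12, edgeR adjusted p = 2e-05), at -0.80 and -0.82 in the 2 mice. KI and wt cells differed by -0.05 when naive (SE 0.09, adjusted p = 1) and by 0.20 at 24 h (SE 0.09, adjusted p = 0.551), where KI was higher in 3 of 3 experiments. The KI rise at 24 h was 0.24 (adjusted p = 0.0454) with upper-quartile scaling and was not called without the KI mouse of experiment 1 (0.33, adjusted p = 0.0698), and the fall in cells labelled KO was not called when only the compared groups were fitted (adjusted p = 0.114).

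The contrast that chose Pon2, KI against wt at 48 h, gave 0.76 on the log2 scale, a 1.69-fold higher level, and 0.79, 0.77 and 0.72 within experiments 1, 3 and 5. From naive to 48 h, the 3 wt mice moved by -0.61, -0.76 and -0.77 and the 3 KI mice by 0.20, 0.02 and 0.06. At 24 h the within-experiment differences were 0.18, 0.22 and 0.19, smaller than at 48 h and alike across experiments. An exon of Gm44424, which lies on the opposite strand, covers 9.27% of the exon bases of Pon2. Its counts were 19 to 128 per library against 1618 to 4179 for Pon2. Of the neighbouring paralogs, Pon1 was too low to be tested and Pon3 stayed at 0.29 to 1.27 CPM, with a wt change from naive to 48 h of -0.02 (SE 0.44, edgeR adjusted p = 0.973).

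Promoter sequence is shown for Pon2, which fell at 48 h in wt cells, and for Sod1 and Prdx1, which rose. The 250 bases upstream of each member's RefSeq start (RefSeq, GRCm38.p6, all 10 genes matched) were searched on both strands for the core of the antioxidant response element, TGACNNNGC, to which NRF2 binds, for the E-box CACGTG, and for the FOXO site TGTTTAC. The first was present in 10.2% of 32851 promoters, the second in 6.02% and the third in 3.17%. Prdx1 and Sod1 held 1 match each to the first, and no other match was found in any member. Below are the stretches of those windows that lie outside annotated exons, 5′ to 3′ on the gene's strand, with the match in capitals (it lies on the opposite strand).
Pon2, chr6:5298456-5298590, minus strand: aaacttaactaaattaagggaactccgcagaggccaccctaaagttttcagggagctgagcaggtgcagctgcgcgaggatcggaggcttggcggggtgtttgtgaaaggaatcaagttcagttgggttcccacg
Prdx1, chr4:116685349-116685543, plus strand: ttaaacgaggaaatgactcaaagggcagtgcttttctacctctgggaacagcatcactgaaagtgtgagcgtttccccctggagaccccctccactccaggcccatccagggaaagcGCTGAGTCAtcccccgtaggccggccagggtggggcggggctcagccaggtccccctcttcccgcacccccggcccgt
Sod1, chr16:90220512-90220753, plus strand: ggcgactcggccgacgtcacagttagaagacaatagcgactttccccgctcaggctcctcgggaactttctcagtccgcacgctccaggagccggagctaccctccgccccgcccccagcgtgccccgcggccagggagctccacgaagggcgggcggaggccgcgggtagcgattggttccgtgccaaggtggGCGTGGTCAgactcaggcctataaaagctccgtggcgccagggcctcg
The match lies 133 to 125 bases upstream of the RefSeq start in Prdx1 and 56 to 48 bases upstream in Sod1. A match of letters is not a measured site.

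Most of the enzymes were higher after activation in wt and KI cells, and 5 of 10 were in cells labelled KO. In wt cells at 24 h against naive, 6 of the 10 members were called higher at an edgeR adjusted p under 0.05 (26.3% of all genes were) and 0 lower (22% were). There 6 members had an unadjusted p under 0.05 (11607 of all 21183 genes had), DESeq2 called 6 members and limma 7, of which Cat was lower. At 48 h, where Pon2 is left out of the counts, 7 of the 9 others were higher (29.5% of all genes) and 1, Cat, lower (26.8%). In KI cells at 24 h, 7 of 10 were higher (22.9%) and 0 lower (15.8%), with 5 called by DESeq2 and by limma. There 7 had an unadjusted p under 0.05 (10032 of all genes had). At 48 h, 6 of 9 were higher in KI cells (26.6%) and 0 lower (22.1%). DESeq2 called 7 of them and limma 6, of which Cat was lower in both. There 7 had an unadjusted p under 0.05 (11615 of all genes had). Cells labelled KO had 5 of 10 higher (23.6%) and 2, Pon2 and Cat, lower (20.4%) at 48 h. When the compared groups alone were fitted, 1 call, of Prdx2, was left, and 1190 of all genes were called rather than 9314. The median change of the 9 at 48 h was 0.94 in wt cells, where that of all genes tested was -0.04. Between 24 h and 48 h, 0 of the 9 were called by edgeR in wt cells (7.49% of all genes), with 1 by DESeq2 and 0 by limma. There 3 had an unadjusted p under 0.05 (4522 of all genes had). In KI cells 0 of the 9 were called between these times (2.68%), with 0 at an unadjusted p under 0.05 and 0 by DESeq2 and limma. These bulk values are relative to all mRNA, so fewer cells of a type and less RNA per cell cannot be told apart.

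**Figure D2:**
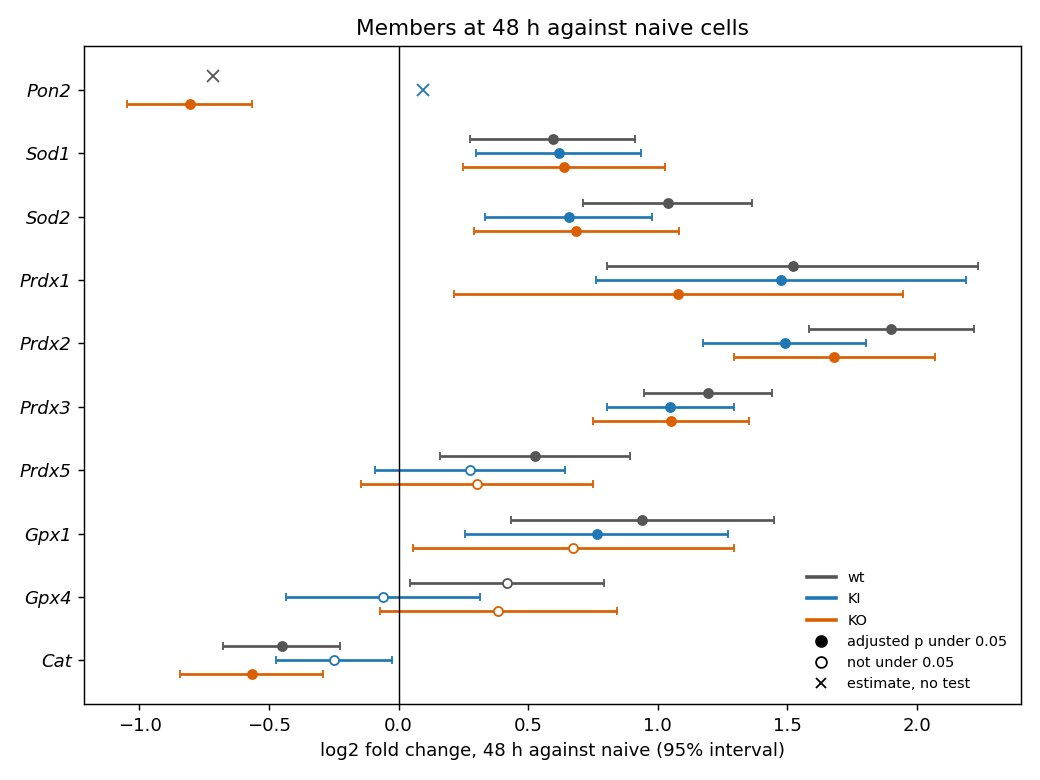
Log2 fold changes from naive to 48 h (x axis) with 95% intervals for the 10 genes in wt cells, KI cells and cells labelled KO; filled points passed an adjusted p of 0.05 and crosses give estimates with no test. Prdx2 was at 1.90 in wt, 1.49 in KI and 1.68 in KO-labelled cells, and Cat lay below 0 in all 3.

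The superoxide dismutases both rose. Sod2 (ENSMUSG00000006818, chr17:13006846-13040063), the manganese enzyme of the matrix, stood at 41.7, 34.9 and 43.5 CPM in wt naive cells of experiments 1, 3 and 5. It reached 62.5, 63.8 and 59.9 CPM at 24 h and 89.3, 68.2 and 89.0 CPM at 48 h. In KI cells it went from 37.0, 36.8 and 41.0 CPM through 48.5, 53.2 and 55.6 CPM to 53.3, 57.5 and 70.1 CPM. All 48 h values lay above all naive values in both genotypes. The rise to 48 h was 1.04 (SE 0.15, edgeR adjusted p = 1.68e-05) in wt and 0.66 (SE 0.15, adjusted p = 0.00176) in KI cells. At 24 h it was 0.63 (SE 0.15, adjusted p = 0.00233) and 0.46 (SE 0.15, adjusted p = 0.0249), and the KI value lost its call in 7 of 13 alternatives. These were each KI mouse left out (adjusted p 0.0616 to 0.162), RLE factors (0.36, adjusted p = 0.0772), upper-quartile scaling (0.28, adjusted p = 0.126), DESeq2 (adjusted p = 0.0724) and limma (adjusted p = 0.118). In cells labelled KO, Sod2 went from 38.6 and 40.9 CPM to 49.5 and 78.3 CPM, a rise of 0.69 (adjusted p = 0.00655) that was 0.36 (adjusted p = 0.215) without the mouse of experiment 5.

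Sod1 (ENSMUSG00000022982, chr16:90220754-90226329), the cytosolic copper and zinc enzyme, rose less. Over all genotypes it ran from 71.8 to 91.5 CPM in naive cells and from 107 to 157 CPM at 48 h, with no overlap. The change to 48 h was 0.60 (SE 0.15, edgeR adjusted p = 0.00272) in wt cells, 0.62 (adjusted p = 0.00256) in KI cells and 0.64 (adjusted p = 0.00978) in cells labelled KO. Without the KI mouse of experiment 5 the KI change was 0.37 (adjusted p = 0.0818), and without the mouse labelled KO of experiment 1 the third was 0.42 (adjusted p = 0.205). At 24 h, the wt rise was 0.51 (adjusted p = 0.00972), and it was not called without the wt mouse of experiment 1 (adjusted p = 0.0913) or 3 (adjusted p = 0.0701). The wt value was 0.33 (adjusted p = 0.0734) with upper-quartile scaling. The KI value at 24 h, 0.39 (adjusted p = 0.0473), lost its call in 10 of 13 alternatives. Among them were upper-quartile scaling (0.22, adjusted p = 0.244), DESeq2 (adjusted p = 0.125), limma (adjusted p = 0.192), experiment as a block (adjusted p = 0.0515) and each KI mouse left out (adjusted p 0.0713 to 0.225).

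Counts of Sod1 depend on how reads were shared with Gm8566, a processed pseudogene (chr6:67205619-67206083) that matches its transcript at 97.8% identity. Gm8566 held 53.2% of the counts of the 2 genes together, and 46.8% to 55.5% in single libraries. Its counts moved with those of Sod1: it was at 73.6 to 89.8 CPM in wt naive cells and 135 to 182 CPM at 48 h, a change of 0.88 (SE 0.15, edgeR adjusted p = 7.10e-05).

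The peroxiredoxins held the members with the largest rises. Prdx2 (ENSMUSG00000005161, chr8:84969587-84974834), a cytosolic enzyme abundant in blood cells, stood at 47.7, 38.7 and 49.1 CPM in wt naive cells, at 127, 118 and 118 CPM at 24 h, and at 169, 135 and 203 CPM at 48 h. KI cells went from 45.1, 46.1 and 48.8 CPM through 101, 104 and 115 CPM to 123, 122 and 148 CPM. The levels at the later times lay far above the naive levels in each mouse, and KI levels lay below wt levels in 3 of 3 experiments at both 24 h and 48 h. The change to 48 h was 1.90 in wt cells (SE 0.15, edgeR adjusted p = 8.71e-09), a 3.74-fold rise. It was 1.49 in KI cells (SE 0.15, adjusted p = 2.38e-07) and 1.68 in cells labelled KO (SE 0.19, adjusted p = 1.04e-06). From 24 h to 48 h the wt change was 0.48 (adjusted p = 0.0533), and 0.46 with an adjusted p of 0.0202 with experiment as a block. Exons of Rnaseh2a and Junb, both on the opposite strand, cover 5.8% and 5.67% of the exon bases of Prdx2. Their counts were 2332 to 7863 and 3574 to 69366 per library, against 2610 to 15583 for Prdx2. Whether counting used strand is not given in the sources used here.

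Prdx1 (ENSMUSG00000028691, chr4:116685544-116700822), the other main cytosolic peroxiredoxin, rose 2.87-fold in wt cells by 48 h but varied widely between mice. In wt cells of experiments 1, 3 and 5 it was at 83.3, 73.1 and 114 CPM when naive, at 263, 265 and 245 CPM at 24 h, and at 252, 144 and 379 CPM at 48 h. In KI cells it was at 74.6, 82.1 and 87.5 CPM, then 202, 214 and 224 CPM, then 208, 190 and 280 CPM. The libraries labelled KO of experiments 1 and 5 were at 85.5 and 102 CPM when naive and at 87.4 and 309 CPM at 48 h. In each genotype the library of experiment 5 was the highest at 48 h. In experiment 1 the cells labelled KO ended at their naive level, whereas in experiment 5 they rose about as far as wt cells. The change to 48 h was 1.52 (SE 0.34, edgeR adjusted p = 0.000975) in wt cells and 1.48 (SE 0.34, adjusted p = 0.00156) in KI cells. In cells labelled KO it was 1.08 (SE 0.41, adjusted p = 0.0413), and 0.03 (adjusted p = 0.973) without the mouse of experiment 5. That call was lost in 7 of 12 alternatives, mouse as a block (adjusted p = 0.0551) and limma (adjusted p = 0.261) among them.

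The processed pseudogenes Gm21399 and Gm7204 match the Prdx1 transcript at 98.3% and 97.5% identity, and together held 44.3% of the combined counts. Gm21399 showed the same spread as Prdx1, at 101 to 253 CPM in wt cells at 48 h and 62.9 to 211 CPM in cells labelled KO. Its change from naive to 48 h in wt cells was 1.54 (edgeR adjusted p = 0.000632). Within 530 aligned coding bases of Prdx1 and Gm21399, the stretch of 90 bases with the most differences is shown, read from GENCODE transcripts on GRCm38. The differing bases are in capitals, and 9 of the 530 differ in all. Parts of the transcripts outside this alignment were not searched for such a stretch.
Prdx1: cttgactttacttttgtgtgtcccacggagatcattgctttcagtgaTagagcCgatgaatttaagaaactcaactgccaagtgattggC
Gm21399: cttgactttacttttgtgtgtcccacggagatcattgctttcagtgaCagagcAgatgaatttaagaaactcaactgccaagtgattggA
For Prdx2, the pseudogene Tdpx-ps1 (96.3% identity) held 16.5% of the combined counts and changed by 1.96 (adjusted p = 4.95e-09) in wt cells. Adding the copies to their members called Prdx2 from 24 h to 48 h in wt cells (0.50, adjusted p = 0.0430).

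**Figure D3:**
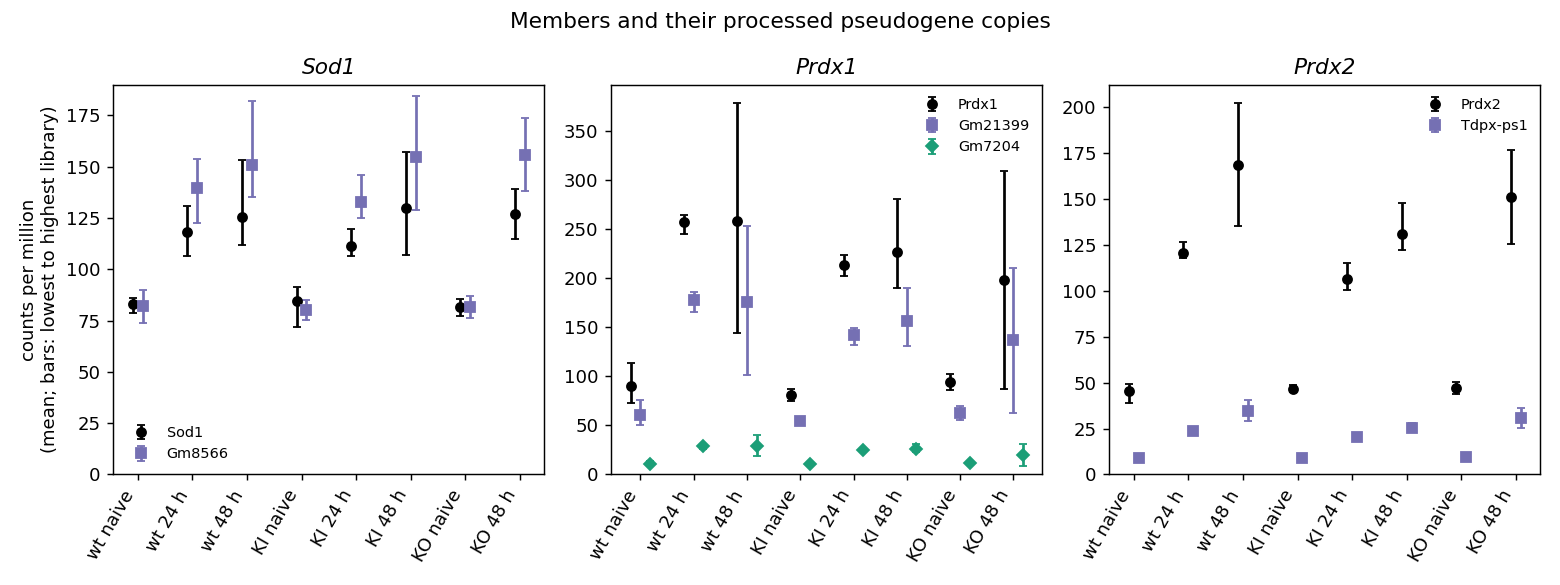
CPM (y axis, from 0) of Sod1, Prdx1 and Prdx2 and of the processed pseudogenes that match their transcripts, by group (x axis); points are means of 3 mice (2 for KO) and bars run from the lowest to the highest library. Each copy rose with its member between naive and 48 h in wt and KI cells, and the spread of Prdx1 at 48 h, 144 to 379 CPM in wt cells, is seen in Gm21399 too.

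Prdx3 (ENSMUSG00000024997, chr19:60864051-60874556), the peroxiredoxin of the mitochondrial matrix, had reached its level by 24 h. It ran from 60.8 to 67.5 CPM in wt naive cells, from 132 to 177 CPM at 24 h and from 137 to 159 CPM at 48 h. KI cells ran from 63.2 to 72.1 CPM, from 140 to 148 CPM and from 129 to 150 CPM. The change to 48 h was 1.20 (SE 0.12, edgeR adjusted p = 1.16e-07) in wt cells, 1.05 (adjusted p = 8.78e-07) in KI cells and 1.05 (adjusted p = 1.21e-05) in cells labelled KO. Between 24 h and 48 h it was -0.08 (SE 0.12, adjusted p = 0.768) in wt cells. Its standard error was the smallest of the 4 members with a wt change above 1 (Prdx1, Prdx2, Prdx3 and Sod2).

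Prdx5 (ENSMUSG00000024953, chr19:6906697-6910106), found in mitochondria, peroxisomes and cytosol, changed less. It went from 60.1, 54.9 and 67.1 CPM in wt naive cells to 75.8, 79.0 and 108 CPM at 48 h, which do not overlap, a change of 0.53 (SE 0.17, edgeR adjusted p = 0.0158). That call was lost without the wt mouse of experiment 3 (adjusted p = 0.0531) or 5 (adjusted p = 0.0709), and in limma on the variance-stabilised values (adjusted p = 0.0625). KI cells gave 62.9, 60.6 and 83.8 CPM at 48 h, a change of 0.28 (SE 0.17, adjusted p = 0.201). Their change at 24 h was 0.33 (adjusted p = 0.141), and 0.31 with an adjusted p of 0.0360 with experiment as a block. Exons of Trmt112 on the opposite strand cover 19.1% of the exon bases of Prdx5, and whether counting used strand is not given in the sources used here.

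The glutathione peroxidases differed from each other. Gpx1 (ENSMUSG00000063856, chr9:108338903-108340343), the main cytosolic and mitochondrial form, was at 74.2, 76.3 and 101 CPM in wt naive cells, at 178, 160 and 156 CPM at 24 h, and at 178, 101 and 204 CPM at 48 h. KI cells were at 71.2, 78.6 and 86.3 CPM, then 133, 131 and 165 CPM, then 124, 115 and 162 CPM. In cells labelled KO it went from 98.7 and 82.6 CPM to 96.0 and 193 CPM. As with Prdx1, the 48 h libraries of wt experiment 3 and of KO-labelled experiment 1 were the lowest at that time. The change to 48 h was 0.94 (SE 0.24, edgeR adjusted p = 0.00294) in wt cells and 0.76 (SE 0.24, adjusted p = 0.014) in KI cells. The wt call was lost without the wt mouse of experiment 1 (0.78, adjusted p = 0.0589). The KI call was lost without the KI mouse of experiment 1 (0.75, adjusted p = 0.0806) or 5 (0.69, adjusted p = 0.0915), and in limma (0.66, adjusted p = 0.0668). At 24 h the wt rise lost its call without the wt mouse of experiment 1 (adjusted p = 0.0541). The KI rise at 24 h lost its call without the KI mouse of experiment 1 (adjusted p = 0.0686). In cells labelled KO the change was 0.67 (SE 0.30, adjusted p = 0.0721), and 1.23 (adjusted p = 0.0108) without the mouse of experiment 1.

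Gpx4 (ENSMUSG00000075706, chr10:80047166-80056439), which reduces lipid peroxides in membranes and so guards against ferroptosis, changed little. It was at 7.99, 9.51 and 10.5 CPM in wt naive cells and at 11, 14 and 12.4 CPM at 48 h, a change of 0.42 (SE 0.18, edgeR adjusted p = 0.0538). KI cells were at 9.74, 9.60 and 9.22 CPM when naive and at 8.34, 9.45 and 9.61 CPM at 48 h, a change of -0.06 (SE 0.18, adjusted p = 0.804). All 3 KI libraries lay below all 3 wt libraries at 48 h, with a difference of -0.45 (SE 0.18, adjusted p = 0.182) that was -0.57 to -0.37 within the experiments. Gpx4 counts were 572 to 1112 per library, the lowest of the members. Gpx4-ps2, a transcribed pseudogene not analysed here, matches the Gpx4 transcript at 99.7% identity over 762 bases, so its counts are uncertain.

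Both glutathione peroxidases are selenoproteins, in which a TGA codon within the reading frame is read as selenocysteine at the active site. That codon was located in the GENCODE transcripts and is printed in capitals with the 21 bases on each side, beside that of Selenow, a small selenoprotein whose level differed between KI and wt cells at 48 h. It is codon 47 of 201 in Gpx1, codon 73 of 197 in the transcript Gpx4-202 and codon 13 of 88 in Selenow.
Gpx1: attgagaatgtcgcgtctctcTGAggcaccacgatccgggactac
Gpx4: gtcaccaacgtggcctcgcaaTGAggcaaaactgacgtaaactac
Selenow: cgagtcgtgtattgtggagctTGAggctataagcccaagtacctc

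Cat (ENSMUSG00000027187, chr2:103453849-103485160), the peroxisomal catalase, fell. It was at 84.7, 86.4 and 95.2 CPM in wt naive cells, 85.3, 77.9 and 75.8 CPM at 24 h, and 66.7, 73.9 and 54.1 CPM at 48 h. The KI values were 78.7, 81.4 and 90.2 CPM when naive and 72.1, 71.5 and 67.1 CPM at 48 h. Cells labelled KO went from 93.0 and 90.9 CPM to 60.9 and 63.2 CPM. In each genotype all 48 h libraries lay below all naive ones. The change was -0.45 (SE 0.11, edgeR adjusted p = 0.00152) in wt cells, -0.28 (adjusted p = 0.0410) without the wt mouse of experiment 5, and -0.57 (SE 0.13, adjusted p = 0.00186) in cells labelled KO. In KI cells it was -0.25 (SE 0.11, adjusted p = 0.0616), which DESeq2 called (-0.31, adjusted p = 0.0144), as did limma (-0.34, adjusted p = 0.00805). Cat is also abundant in red cells, whose 6 markers summed to 7.09 to 36.5 CPM in wt naive cells and 0.29 to 0.59 CPM at 48 h. Their part in this change was not tested.

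Between genotypes, the 9 enzymes other than Pon2 gave no call. In naive KI against wt cells 0 of 10 members were called (0.113% of all genes were), with 0 at an unadjusted p under 0.05 and 0 by DESeq2 and limma. At 24 h the count was 0 (0.00472% of all genes), and 0 by either other tool. There 1 member, Pon2, had an unadjusted p under 0.05, as did 1903 of all 21183 genes. At 48 h, the contrast that chose Pon2 (4.17% of all genes), of the 9 others edgeR, DESeq2 and limma called 0. An unadjusted p under 0.05 was reached by 3793 of all 21183 genes and by 3 of these 9. Those 3, named after their values were seen, were Sod2, Prdx2 and Gpx4. Sod2 differed by -0.45 (SE 0.15, edgeR adjusted p = 0.114) and was lower in KI cells in 3 of 3 experiments, by -0.74, -0.24 and -0.34. Prdx2 differed by -0.37 (SE 0.15, adjusted p = 0.188), also lower in 3 of 3. Without the wt mouse of experiment 3 both were called, at -0.56 (adjusted p = 0.0488) and -0.50 (adjusted p = 0.0490), in a fit that called 6.09% of all genes.

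The other members differed between KI and wt cells at 48 h by -0.34 (Prdx5), -0.27 (Gpx1), -0.19 (Prdx1), -0.12 (Prdx3), 0.11 (Cat) and 0.05 (Sod1). Their 95% intervals all held 0, and the interval of Prdx1 was wide, from -0.89 to 0.51. The test of whether the change from naive differed between KI and wt cells gave 0 calls among the members at 24 h (0% of all genes), with 0 at an unadjusted p under 0.05 and 0 by DESeq2 and limma. At 48 h it gave 0 calls among the 9 others (0.387% of all genes) by edgeR, DESeq2 or limma, with 0 at an unadjusted p under 0.05. For Sod2 that difference of changes was -0.38 (95% interval -0.84 to 0.07) and for Prdx2 it was -0.41 (-0.85 to 0.02). Cells labelled KO against wt cells gave 0 of 10 members when naive (0.0236% of all genes), 0 of the 9 others than Pon2 at 48 h (0.0283%) and 0 of these 9 in the difference of changes (0%). In all 3 edgeR fits there were 0 at an unadjusted p under 0.05 and 0 by DESeq2 and limma. Without the mouse labelled KO of experiment 5, Prdx1 (-1.57, adjusted p = 0.00817) and Sod2 (-0.73, adjusted p = 0.00981) were called lower than in wt cells at 48 h, a comparison that then rests on 1 library labelled KO, assumed to vary like the other groups. That fit called 4765 genes, 22.5% of all genes, and 2 of 9 members is near that share.

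**Figure D4:**
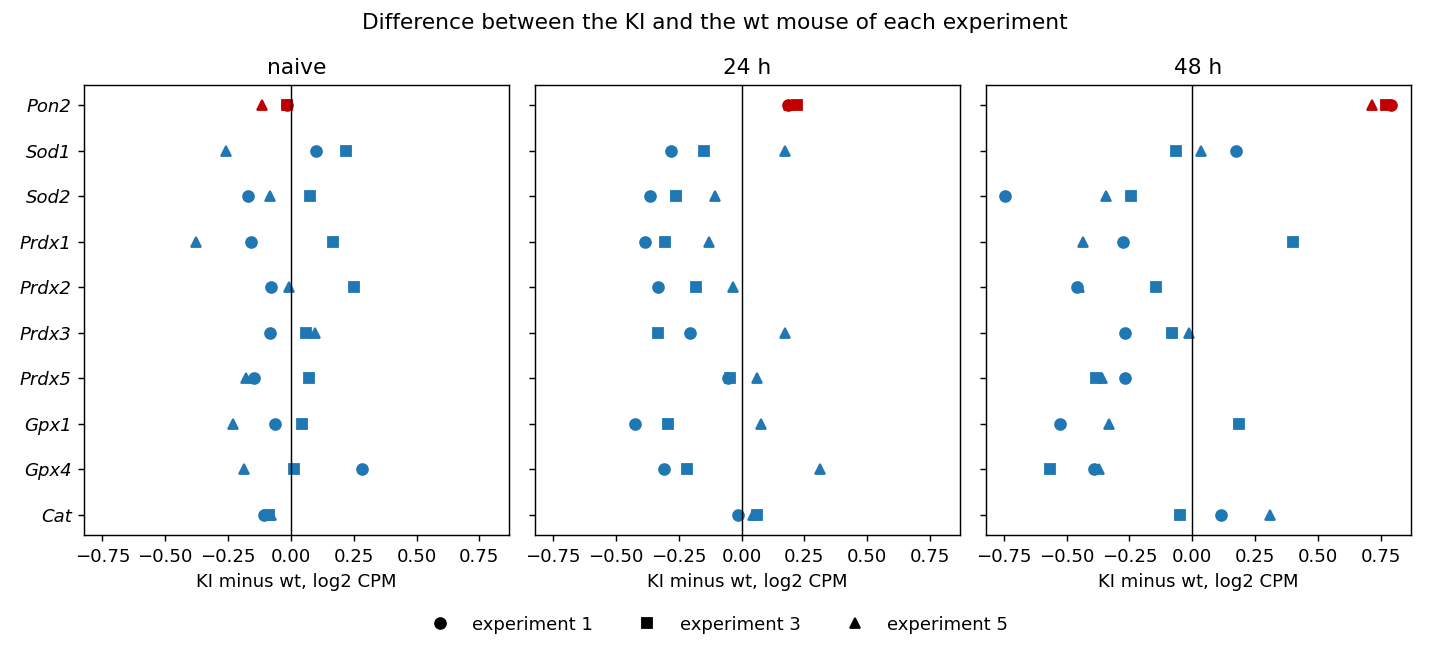
Difference in log2 CPM between the KI and the wt mouse of the same experiment (x axis) for each of the 10 genes (y axis) in naive cells, at 24 h and at 48 h; each marker is 1 experiment and Pon2 is in red. Pon2 lay at -0.11 to -0.02, then 0.18 to 0.22, then 0.72 to 0.79, while Sod2, Prdx2, Prdx3, Prdx5 and Gpx4 lay below 0 in all 3 experiments at 48 h.

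Among the members, the 8 group means of log2 CPM ran closely together for most enzymes. Sod1 was most like Prdx2 (Pearson r = 0.985), Gpx1 most like Prdx3 (r = 0.982) and Sod2 most like Prdx5 (r = 0.969). Cat ran against all enzymes that rose in wt cells, with r from -0.87 for Prdx2 to -0.62 for Prdx1. Pon2 was most like Cat (r = 0.79) and least like Gpx4 (r = -0.92). These points share libraries and depth and describe the samples only.

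The genes whose group means were most like those of Pon2, among 10414 genes with a mean log2 CPM of at least 3, were Nucb2 (r = 0.995), Tnfrsf14 (r = 0.990), Atpaf1 (r = 0.989), Apopt1 (r = 0.987) and Fam49a (r = 0.983). Nucb2, a calcium-binding protein of the secretory pathway, averaged 11.9, 15.5 and 4.64 CPM in wt cells at the 3 times and 10.8, 18 and 11.3 CPM in KI cells. Tnfrsf14, the receptor also known as HVEM, averaged 38.7, 43.1 and 23.6 CPM in wt cells and 39.3, 51.0 and 39.6 CPM in KI cells. Atpaf1, an assembly factor of the mitochondrial ATP synthase, averaged 8.17, 9.58 and 6.10 CPM in wt cells. Over the 22 libraries that these means average, 2 of these 5, Nucb2 (r = 0.950) and Fam49a (r = 0.909), were among the 5 most like Pon2. The other 3 were not, with r = 0.845 for Tnfrsf14, 0.764 for Apopt1 and 0.699 for Atpaf1.

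The wider set of redox genes, 106 genes in 12 groups by function, of which 99 were tested, places the members. From naive to 48 h in wt cells, 40 of these 99 rose and 26 fell (29.5% and 26.8% of all genes). In KI cells 39 rose and 20 fell (26.6% and 22.1%), and in cells labelled KO 27 rose and 22 fell (23.6% and 20.4%). The suppliers of NADPH, which feeds both the thioredoxin and the glutathione systems, mostly rose, 10 of 13 in wt cells and 11 of 13 in KI cells, with none lower in either by edgeR. Of 18 genes of the thioredoxin system 10 rose and 4 fell in wt cells, and of 10 of glutathione synthesis and recycling 6 rose and 2 fell. Of 18 genes around NRF2, the factor that binds the antioxidant response element, 3 rose and 7 fell. All 4 of the FOXO factors and coactivators linked to Sod2 and Cat transcription (Foxo1, Foxo3, Ppargc1a and Ppargc1b) fell in wt cells, and 3 of 4 did in KI cells.

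The largest rises in wt cells at 48 h were of Chac1, which degrades glutathione, of Mthfd2, a mitochondrial folate enzyme, and of Txn1, thioredoxin itself. Chac1 went from at most 0.16 CPM in wt naive cells to 3.43 to 9.67 CPM at 48 h (log2 change 6, SE 0.80, edgeR adjusted p = 4.9e-06). Mthfd2 went from 25.7 to 30.7 CPM up to 274 to 343 CPM (3.42, SE 0.26, adjusted p = 3.9e-09). Txn1, an electron donor of peroxiredoxins, went from 36.8 to 43.6 CPM up to 277 to 436 CPM (3.12, SE 0.17, adjusted p = 1.49e-10). Prdx4, the peroxiredoxin of the endoplasmic reticulum, rose by 2.75 (adjusted p = 1.46e-06), and Slc7a11, the cystine transporter, by 2.59 (adjusted p = 0.00312) at 0.63 to 1.42 CPM. In KI cells these 5 changed by 5.60, 2.94, 2.66, 2.22 and 3.70, all called. A near-identical copy of Txn1 held 33.0% of the combined counts.

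Among falls, Ggt1, which breaks down extracellular glutathione, went from 59.0 to 84.4 CPM in wt naive cells down to 0.95 to 1.95 CPM at 48 h (-5.74, SE 0.48, edgeR adjusted p = 1.61e-08), and by -5.76 in KI cells. Txnip, the inhibitor of thioredoxin, changed by -2.67 (SE 0.25, adjusted p = 6.63e-08) in wt cells and by -1.95 (adjusted p = 3.43e-06) in KI cells. Exons of Gm15441 on the opposite strand cover 19.4% of the exon bases of Txnip, and use of strand in counting is not known. The counts of Gm15441 were 2698 to 24287 per library, against 8864 to 82282 for Txnip. Gpx8, a glutathione peroxidase of the endoplasmic reticulum, had no count in any 48 h library, and was at least 13.2-fold lower in wt cells at 48 h than in naive cells, taking a floor of 3 counts over the group. Its naive mean was 0.17 CPM. Mgst1 (-4.21, adjusted p = 0.0173) and Ppargc1a (-3.14, adjusted p = 0.0142) were also low, at most 2.07 and 0.46 CPM in wt naive cells, and each lost its call in 2 of 13 alternatives. The monocyte and B cell markers given above were lower over the same time, and their part in these values was not tested.

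**Figure D5:**
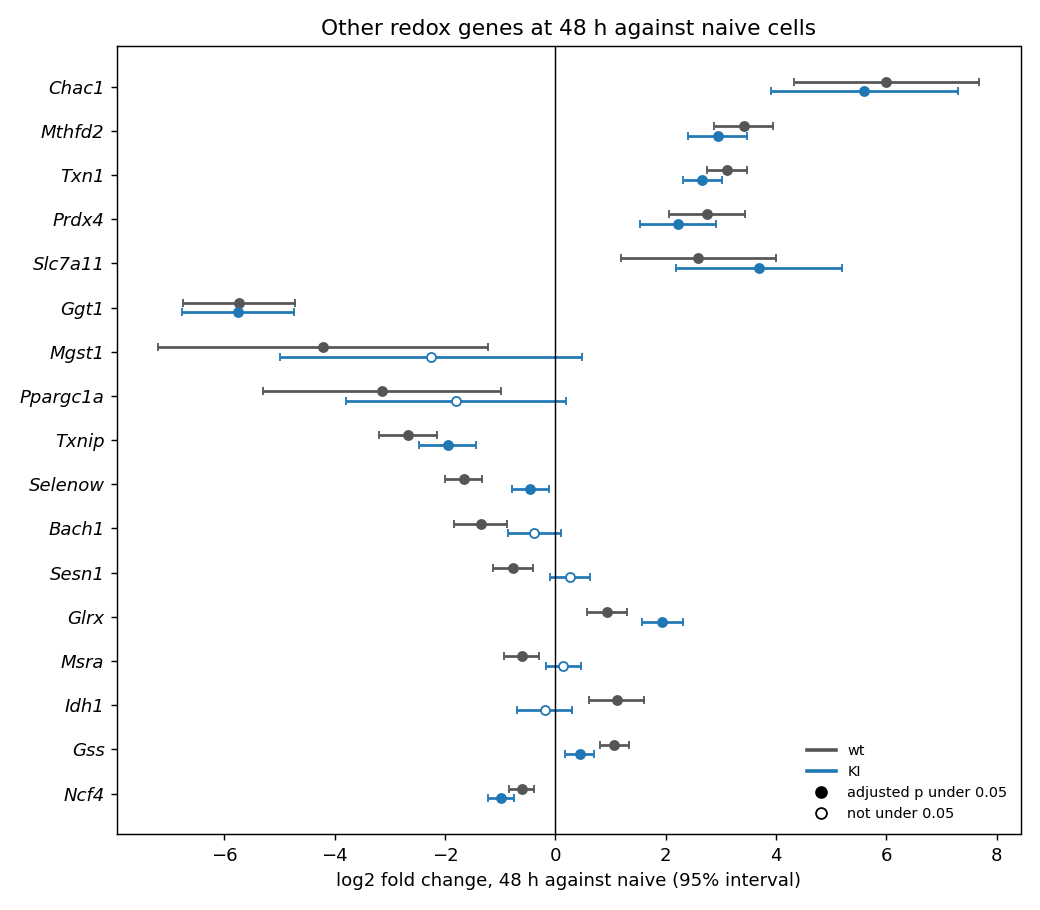
Log2 fold changes from naive to 48 h (x axis) with 95% intervals for the named genes of the wider redox set in wt and KI cells; filled points passed an adjusted p of 0.05, and Gpx8 is left out since it had no count at 48 h. Txn1 was at 3.12 in wt and 2.66 in KI cells, and Selenow at -1.66 and -0.45.

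Between KI and wt cells the redox genes gave 0 calls when naive (0.113% of all genes) and at 24 h (0.00472%), and 0 by DESeq2 and limma at either time. An unadjusted p under 0.05 was reached by 2 and 10 of the 99, and by 434 and 1903 of all 21183 genes. At 48 h 8 of 99 were called, 5 higher and 3 lower in KI cells (4.17% of all genes in either direction). Selenow, the small selenoprotein shown above, was at 88.2 to 109 CPM in KI cells and 35.0 to 49.6 CPM in wt cells (1.28, SE 0.16, edgeR adjusted p = 0.000302). Its fall from naive was 1.66 in wt cells and 0.45 in KI cells, and these changes differed by 1.21 (SE 0.22, adjusted p = 0.0211), a call lost in 5 of 16 alternatives (adjusted p up to 0.363). In cells labelled KO it was at 32.7 to 42.0 CPM at 48 h. Sesn1, a sestrin, differed by 0.91 (SE 0.17, adjusted p = 0.00596), and Glrx, glutaredoxin, by 0.87 (SE 0.17, adjusted p = 0.00744), at 32.4 to 46.1 CPM in KI and 20.6 to 24.1 CPM in wt cells. Bach1, the repressor that competes with NRF2, differed by 0.96 (adjusted p = 0.0224) and Msra, which repairs oxidised methionine, by 0.70 (adjusted p = 0.0131).

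Lower in KI cells at 48 h were Idh1, the cytosolic NADP-dependent isocitrate dehydrogenase, Gss, glutathione synthetase, and Ncf4, a subunit of the phagocyte NADPH oxidase. Idh1 was at 4.85 to 6.55 CPM in KI cells and 12.9 to 16.5 CPM in wt cells (-1.44, SE 0.24, edgeR adjusted p = 0.00258), where it had risen from 5.88 to 7.92 CPM. Gss differed by -0.53 (SE 0.13, adjusted p = 0.023) and Ncf4 by -0.42 (SE 0.11, adjusted p = 0.0347). Exons of Acss2 on the opposite strand cover 6.68% of the exon bases of Gss, and use of strand in counting is not known. The counts of Acss2 were 1514 to 6959 per library, against 752 to 2516 for Gss. Of the 8 genes, Selenow and Idh1 were called in all 15 alternatives. The call was lost in 3 for Glrx, 4 for Sesn1, 5 each for Bach1 and Msra, 6 for Gss and 7 for Ncf4. At 48 h the marker sum of stromal and endothelial genes was also higher in KI cells, 146 to 196 CPM against 86.5 to 92.2 CPM. Nearly all of it was Pecam1. The other listed genes, Col1a1, Pdpn and Cdh5, reached at most 1.03, 0.13 and 0.62 CPM in any library. The part of this sum in the differences above was not tested.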

How the data were processed

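The deposited count table held whole-number read counts for 46603 genes, per the file headers and values; per the submitters' processing notes TopHat2 2.1.0, Bowtie2 2.2.5, featureCounts and DESeq2 1.6.3 were used on GRCm38 (mm10), with no order given. Use of strand in counting is not given in the sources used here. The authors also deposited FPKM values, used for levels between genes, and variance-stabilised log2 values, used in limma 3.58.1 as an alternative; a further log2 table of the authors was used in no test. Columns of other samples numbered 0.

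Genes were kept with filterByExpr (minimum count 10, total 15). Counts were scaled by TMM, a model of 8 group means on 22 libraries was fitted in edgeR 4.0.16 (robust quasi-likelihood test, 14 residual degrees of freedom before moderation), and p-values were adjusted by Benjamini-Hochberg over 21183 genes in each of 15 comparisons, two-sided, with calls under 0.05. Fold changes are log2; CPM use TMM-scaled library sizes. The fit was tested on simulated counts drawn independently for each library, without the pairing by experiment and mouse given below. Members had 572 to 28238 counts per library, which limits the precision most for Gpx4.

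The members and lists were chosen with earlier results of these data known. Counts planned over 10 members leave out Pon2 wherever the 48 h libraries of KI or wt cells enter, since it was chosen by them; its rows there were left out of the alternatives too. Named redox genes are up to 5 called genes with the largest change in each direction, for wt at 48 h against naive and for KI against wt at 48 h, and genes most like Pon2 are the 5 with the highest Pearson r over 8 group means. Libraries are paired by experiment and by mouse, both of which the labels give: deviations from group means correlated in 9 KI and wt pairs of 1 experiment with a median r of 0.22, and 8 exceeded 0.1. Replicates differed beyond sampling noise (lowest chi-square 14.4 per degree of freedom over 20 pairs). Near-identical copies were found with blastn 2.17.0+ against GENCODE transcripts on GRCm38, whose gene positions equalled the authors' for all 10 members. Alternatives were other scalings, no filter, DESeq2 1.42.0, limma, the compared groups alone, replicate blocks and each mouse left out.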

Additional observations from a re-analysis of the deposited data

Results flagged for a closer look

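By sign, Pon2 moved in opposite directions between naive cells and 48 h. All 3 wt mice went down, with a mean change of -0.715 in log2 CPM. All 3 KI mice went up, but by a mean of only 0.0944, so that KI cells stayed near their naive level (means of 35.4 CPM when naive and 37.8 CPM at 48 h). The difference is given with no test, since Pon2 was chosen by its KI and wt levels at 48 h.

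Selenow, a gene of the wider redox set, changed differently from naive to 48 h in KI and wt cells, by 1.21 on the log2 scale in the test of the difference itself. That call was lost in some of the alternatives, as given above. Selenow was named because it was among the 8 redox genes called between KI and wt cells at 48 h, a contrast that shares its 48 h libraries with this test.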

How the results depend on the processing

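Leaving out Pon2 wherever the 48 h libraries of KI or wt cells enter, 34 calls of members were refitted in 435 alternatives, of which 389 kept direction and call, 46 kept the direction and lost the call, and 0 reversed. Among results not called, 21 of 1553 became calls and 99 changed sign without a call. For wt cells between 24 h and 48 h, 1 of 9 members rather than 0 was called (Prdx2) with RLE factors, DESeq2, either replicate block and, added after seeing the data, near-identical copies added. With the compared groups alone, 1 member rather than 7 was called in cells labelled KO at 48 h, a fit with fewer samples. Of all genes that fit called 1190 rather than 9314. Of redox genes between KI and wt cells at 48 h, DESeq2 called 15 and the compared groups alone 2, rather than 8. Of all genes they called 1714 and 109, rather than 884. Leaving out single mice gave 0 to 1 members for wt cells between 24 h and 48 h (1 without the wt mouse of experiment 3, where 1409 genes were called rather than 1587). For KI cells at 24 h it gave 3 to 5 (3 without the KI mouse of experiment 1, where 5038 genes were called rather than 8203). It gave 0 to 2 for KI against wt at 48 h (2 without the wt mouse of experiment 3, where 6.09% of all genes were called) and 0 to 2 for cells labelled KO against wt at 48 h (2 without the mouse of experiment 5, where 22.5% of all genes were called). For redox genes between KI and wt cells at 48 h it gave 2 to 16 (2 without the KI or the wt mouse of experiment 1, 3 and 5 without the KI mice of experiments 3 and 5, and 16 without the wt mouse of experiment 3). In the same order, these fits called 91, 116, 283, 403 and 1290 of all genes, rather than 884. The replicate block by experiment or by mouse changed the calls given beside Prdx2, Sod1, Prdx5 and Prdx1 and no other call of a member. Upper-quartile scaling moved the median change of all genes in wt cells at 48 h from -0.04 to -0.26 and the change of Sod1 there to 0.38 (adjusted p = 0.0356), and ended the Prdx5 call (0.31, adjusted p = 0.126). The cause of these differences was not tested.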
